A study of Mus musculus with 8 samples.

Results

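The Slc25a genes encode the mitochondrial carrier family, and 46 of them were measured in mouse oocytes after bisphenol S (BPS) or no treatment. They were chosen as the probe sets of the authors' deposited table that carry exactly 1 gene symbol, with that symbol starting with Slc25a. Each of the 46 genes had 1 such probe set, out of 34472 probe sets on the array and 29455 genes named by a single symbol. A further 2 probe sets name an Slc25a gene together with another gene and were left out of every count. Total RNA was hybridised to 8 Affymetrix mouse whole-transcript arrays, 4 from BPS animals and 4 from control animals, all female ICR mice aged 8 weeks on a diet without phyto-oestrogens. BPS replaces bisphenol A in many plastics and receipt papers; each day for 7 days the animals received 0.1 ng of it per g of body weight by gavage in 50% glycerol with 0.1% DMSO. The control animals are labelled as untreated, with no vehicle named. Oocytes are named as the tissue and as the source of the extract, whereas the animal protocols speak of collected ovaries. The protocols give 4 animals a group for the transcriptome but do not tie an array to an animal, so p-values measure only the spread between these arrays.

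Mitochondrial carriers are small inner-membrane proteins built from 3 repeats of a pair of helices, and each moves a metabolite, nucleotide, cofactor or ion across a membrane that is otherwise tight. Together they couple the matrix to the cytosol: ADP enters and ATP leaves, phosphate and organic acids feed respiration, and vitamins, iron and glutathione reach the enzymes that need them. The growing oocyte holds a large stock of maternally made mitochondria and relies on oxidative metabolism of pyruvate. A few members depart from the name of the family. Slc25a17 is a peroxisomal carrier, and the deposited files hold no measure of where any of these proteins resides.

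The labelled cell type was checked against its markers. All 20 oocyte genes examined lay above a background level of 4.53. The mean log2 signal of that list ran from 9.12 to 9.28 on the BPS arrays and from 9.05 to 9.28 on the control arrays. That background level is the 95th percentile of the mean signals of 1732 probe sets for Y-linked genes and for olfactory and vomeronasal receptors. Of 12 granulosa and cumulus genes 3 exceeded it (Inha, Nr5a2 and Serpine2), and the mean of the list ran from 4.71 to 4.94 on BPS arrays and from 4.64 to 4.78 on control arrays. Over all arrays Serpine2 averaged 8.25, Nr5a2 6.36 and Inha 5.27, so the list mean hides bright members. None of 10 theca and stroma genes exceeded it, with array means of 4.06 to 4.19 in BPS and 4.07 to 4.16 in control. None of 5 measured erythroid genes did, with array means of 4.06 to 4.23 in BPS and 3.96 to 4.12 in control. Of 7 leukocyte and endothelial genes 1 did (Pecam1), and their array means were 4.50 to 4.61 in BPS and 4.46 to 4.62 in control. Inha, the alpha subunit of inhibin made by granulosa cells, read 5.24, 5.05, 5.34 and 6.56 on BPS arrays 1 to 4, against 4.50, 4.86, 5.32 and 5.26 on control arrays 1 to 4. BPS minus control, Inha differed by 0.56 in log2, whereas the other bright members differed by 0.13 (Serpine2) and 0.10 (Nr5a2). After quantile normalization these values were 0.42, 0.09 and -0.06. The median difference of the 12 genes was 0.04, and that of all probe sets above background was 0.12. Any part of granulosa RNA in the differences below was not tested. Fewer cells of a type and less RNA per cell cannot be told apart in such bulk samples. In the table's headers the arrays carry names of 2 series: arrays 1 and 2 of each group are named with numbers, arrays 3 and 4 with letters, and both series hold both groups.

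Of the 46 carrier genes, 19 had a mean signal above background and 27 did not. The share above background was 41.3%, compared with 30.5% of all probe sets with 1 symbol. Measured against each array's own background, 14 genes were above it on all 8 arrays, 21 on no array and 11 on some. The number of carrier genes above an array's own background was 15, 17, 19 and 23 on BPS arrays 1 to 4, against 17, 18, 15 and 18 on control arrays 1 to 4, so the groups overlapped. Probe sets differ in how strongly they respond, and so no gene's signal is set here against that of another as a level of RNA. A gene at or below background is one whose probe set gave no more signal than genes expected to be silent; its absence is not shown.

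The comparison of BPS with control asked whether carrier transcripts differed after the low dose. Differences are BPS minus control on the log2 scale, with SE from limma, and errors of groups are SD over n = 4 arrays. None of the 46 genes passed limma's test at a Benjamini-Hochberg adjusted p under 0.05 over all probe sets, and the smallest adjusted p among them was 0.390. Over the whole array 0.0087% of probe sets passed. At an unadjusted p under 0.05, 3 carriers were higher in BPS (Slc25a17, Slc25a28 and Slc25a5) and 1 was lower (Slc25a36), where 7.99% of all probe sets were higher and 3.11% lower. All 3 higher genes were among the 19 above background, and there 16.3% of all probe sets were higher at that p. The members' shares were thus near those of the array as a whole. In the authors' deposited table the smallest p of a carrier was 0.0429, 3 carriers had a p under 0.05 (Slc25a17, Slc25a28 and Slc25a36), and the FDR ran from 0.864 to 0.999.

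The differences were small. They ran from -0.28 to 0.52, and no carrier differed by 1.5-fold or more. The 95% confidence interval lay wholly within 1.5-fold in either direction for 37 of the 46 genes, and for 10 of the 19 above background; with the replicate number as a block these counts were 43 and 16. From the difference to either end, that interval spanned a median of 0.33 among genes above background, with a range of 0.16 to 0.51, and a median of 0.12 among the dimmer genes. For a gene at or below background a narrow interval bounds its signal and sets no limit on a change of its RNA. The plot of each gene's difference with its interval shows this spread.

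**Figure D1:**
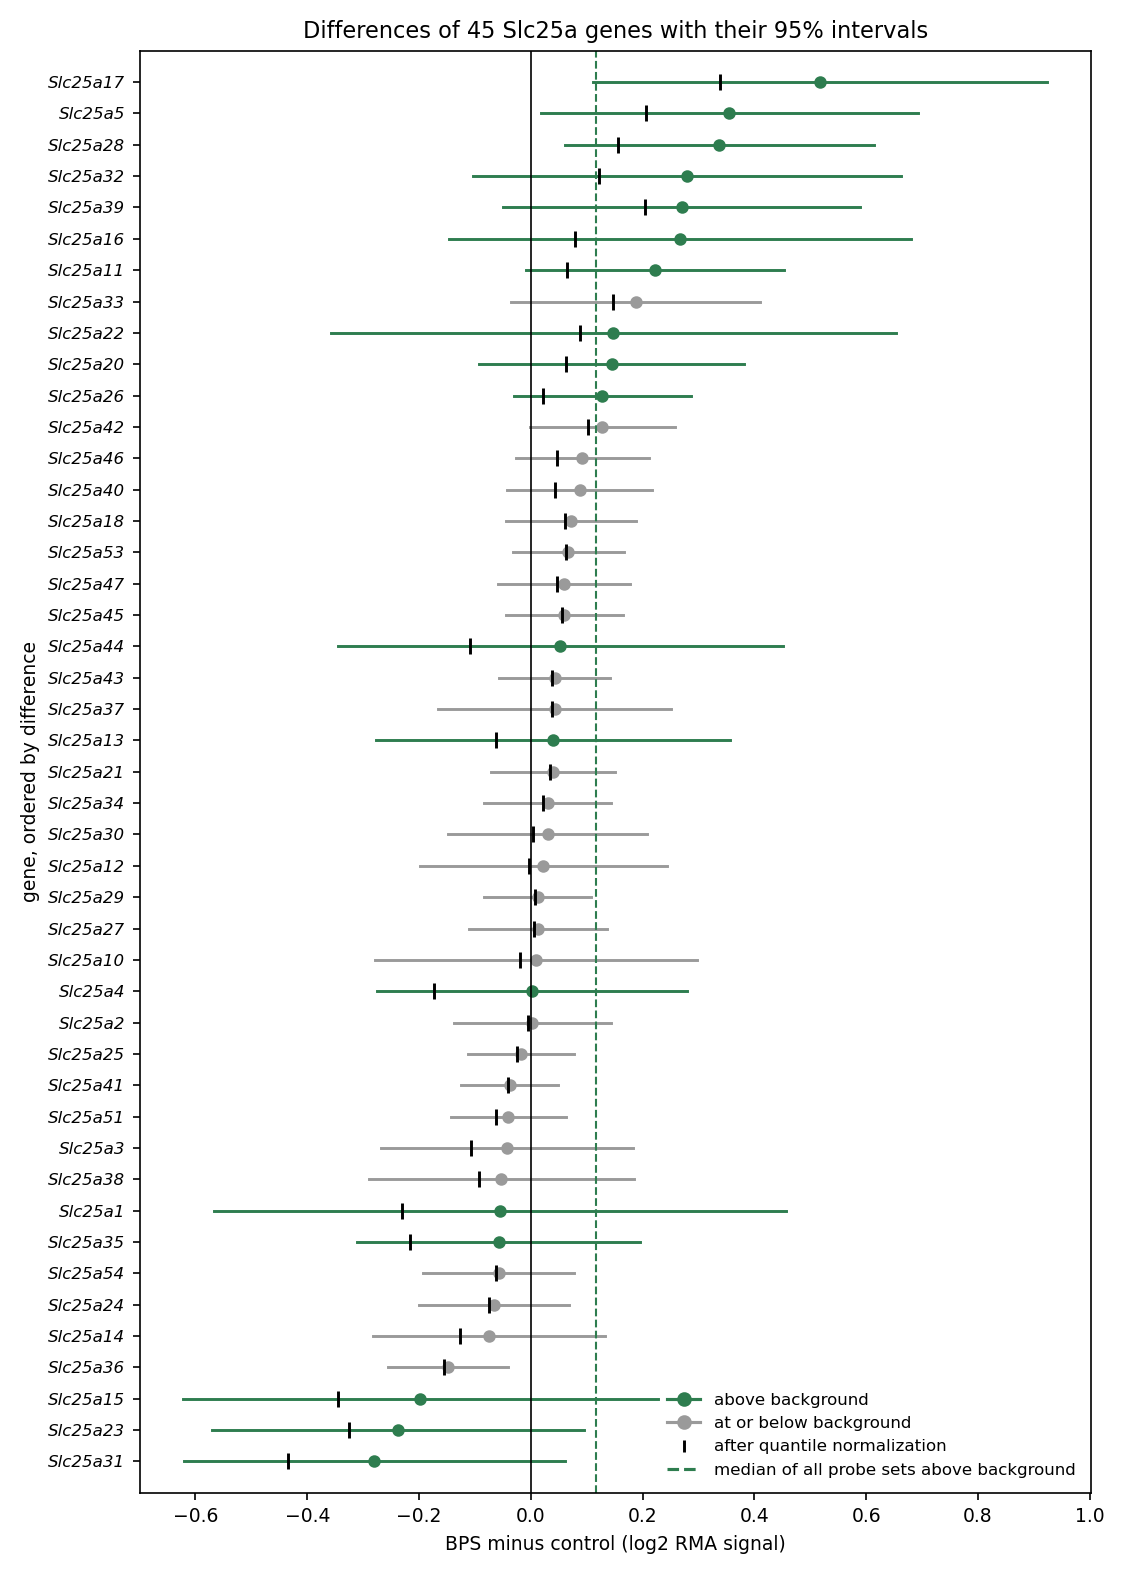
Difference of 45 of the 46 Slc25a genes, BPS minus control in log2 RMA signal (horizontal axis), with 1 gene per line. Points are differences with their 95% confidence intervals, ticks are the differences after quantile normalization, and the dashed line is the median difference of 0.12 of all probe sets above background; the points run from 0.52 for Slc25a17 at the top to -0.28 for Slc25a31 at the bottom.

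More carriers lay above 0 than below it, as did the array as a whole. Of the 19 genes above background 13 were positive and 6 negative, with a median difference of 0.13, whereas all probe sets above background had a median of 0.12 and 70.6% of them were positive. After quantile normalization, which gives every array the same distribution, 10 of the 19 were positive and 9 negative, with a median of 0.02, and the median of all probe sets above background was 0.00. Over all 46 genes 31 were positive and 15 negative with a median of 0.04, compared with a median of 0.03 and 59.1% positive among all probe sets. After quantile normalization 6 positive carriers became negative and no negative one became positive; 3 of the 6 were above background (Slc25a4, Slc25a13 and Slc25a44). Where carriers stand among all probe sets is drawn in the plot of level and difference.

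**Figure D2:**
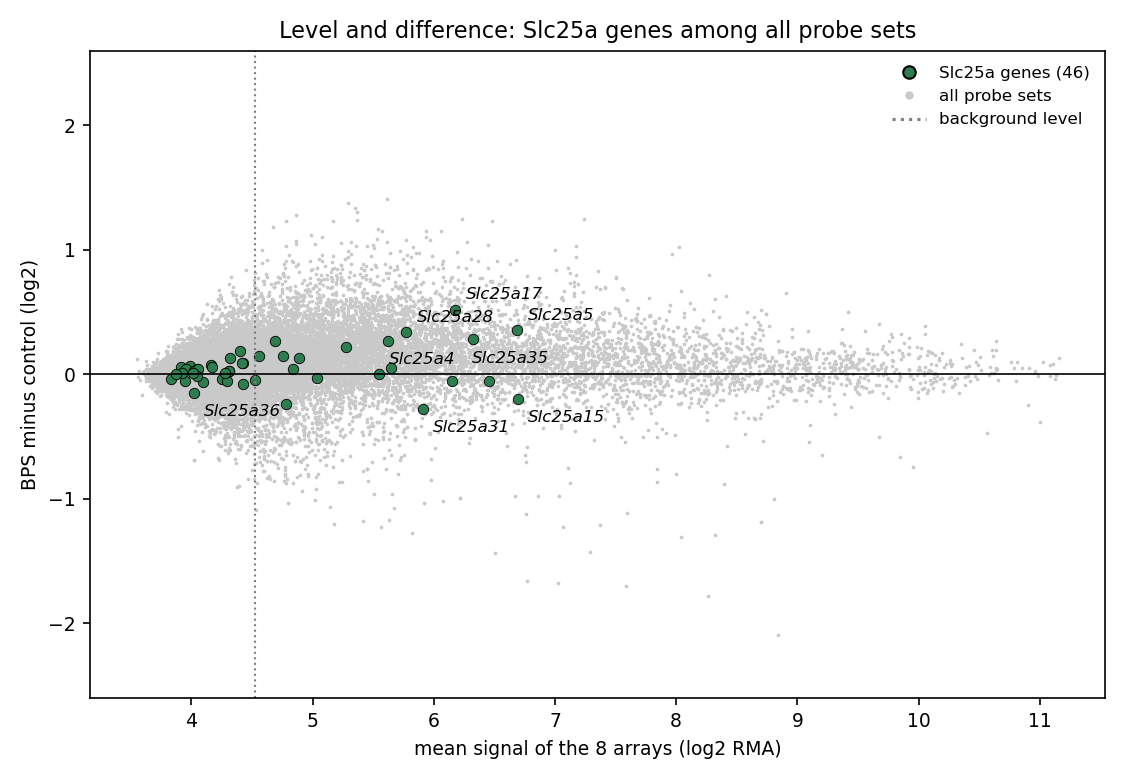
Mean signal of the 8 arrays in log2 RMA units (horizontal axis) and difference BPS minus control in log2 (vertical axis) for the 46 Slc25a genes (large points) and all 34472 probe sets (small points). The dotted line is the background level of 4.53, with 27 carriers at or below it and 19 above it, and all carriers lie between -0.28 and 0.52 inside the cloud of other probe sets.

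The 3 ADP/ATP carriers, which exchange cytosolic ADP for matrix ATP, were all above background and did not share a direction. Slc25a5, the carrier of proliferating and many somatic cells, lies on chromosome X (GRCm38.p6 36795597 to 36798808). Slc25a4, the heart and muscle form, lies on chromosome 8 (46207168 to 46211062), and Slc25a31, a form of germ cells that mouse male meiosis requires, on chromosome 3 (40708871 to 40726094). Their promoters are shown because these 3 genes make proteins with the same exchange activity from separate loci. The sequences are the 250 bases before the annotated start, read 5′ to 3′ on the gene's strand, from RefSeq on GRCm38.p6: chrX:36795347-36795596 on the plus strand, chr8:46211063-46211312 on the minus strand and chr3:40708621-40708870 on the plus strand. Capitals mark matches, on either strand, of the GC box GGGCGG and of the E2F core TCCCGC, letters that can overlap.
Slc25a5: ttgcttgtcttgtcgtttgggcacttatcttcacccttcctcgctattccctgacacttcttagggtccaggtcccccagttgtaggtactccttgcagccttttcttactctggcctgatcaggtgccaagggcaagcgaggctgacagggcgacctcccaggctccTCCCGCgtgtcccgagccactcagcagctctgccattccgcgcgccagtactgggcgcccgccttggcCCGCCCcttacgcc
Slc25a4: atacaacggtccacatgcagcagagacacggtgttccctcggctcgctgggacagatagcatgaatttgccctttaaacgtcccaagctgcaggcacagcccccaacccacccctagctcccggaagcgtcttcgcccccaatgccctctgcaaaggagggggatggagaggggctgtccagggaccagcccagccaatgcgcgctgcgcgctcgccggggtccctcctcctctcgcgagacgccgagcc
Slc25a31: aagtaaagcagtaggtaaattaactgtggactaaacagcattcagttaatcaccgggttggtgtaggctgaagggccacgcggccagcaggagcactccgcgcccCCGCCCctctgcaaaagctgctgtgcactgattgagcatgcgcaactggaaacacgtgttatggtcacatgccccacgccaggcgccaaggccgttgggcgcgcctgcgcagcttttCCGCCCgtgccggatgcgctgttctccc
The Slc25a5 window holds 1 GC box and 1 E2F core, the Slc25a31 window holds 2 GC boxes, and the Slc25a4 window holds neither. They contain 14, 18 and 18 CpG dinucleotides for Slc25a5, Slc25a4 and Slc25a31, where the median of all windows was 6.

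Promoter windows were found for 35 of the 46 carriers, in 45 windows. Of these windows 31 (24 genes) held a GC box, which 32.7% of all 32851 windows hold, and 8 (7 genes) held an E2F core, which 16.9% of all windows hold. The nuclear receptor half-site AGGTCA stood in 4 of the windows and in 14.0% of all. The cAMP response element TGACGTCA stood in 2 and in 1.55% of all, and the NRF1 core CGCATGCG in none of the 45 and in 1.55% of all. The median carrier window had 12 CpG dinucleotides. A match of letters is a description of the window and not a measure of binding.

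Slc25a5 read 6.62, 6.97, 6.88 and 6.99 on BPS arrays 1 to 4, against 6.45, 6.50, 6.89 and 6.20 on control arrays 1 to 4. The groups overlapped, because control array 3 lay as high as the BPS arrays. The difference was 0.36 ± 0.15 (SE; adjusted p = 0.435), and 0.21 after quantile normalization. Within the number-named arrays it was 0.32 and within the letter-named arrays 0.39. A pseudogene, Slc25a5-ps, is annotated on chromosome 14, and whether the probe set separates the copies was not tested. Slc25a4 read 5.19, 5.74, 5.72 and 5.54 on BPS arrays, against 5.52, 5.45, 5.55 and 5.66 on control arrays. The groups had almost the same mean, with a difference of 0.00 ± 0.12 (SE; adjusted p = 0.996; 95% confidence interval -0.28 to 0.28), which became -0.17 after quantile normalization.

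Slc25a31 was the ADP/ATP carrier with a lower mean in BPS. It read 5.91, 5.73, 5.68 and 5.75 on BPS arrays, against 6.48, 5.96, 6.04 and 5.71 on control arrays. Control array 4 fell among the BPS arrays while the other 3 controls lay above all of them. The difference was -0.28 ± 0.15 (SE; adjusted p = 0.502). It was -0.40 within the number-named arrays, -0.16 within the letter-named arrays, -0.43 after quantile normalization and -0.14 without control array 1, its highest. The gap between the probe sets of Slc25a5 and Slc25a31, a pair chosen after its values were seen and so given with no test, was 0.71, 1.24, 1.20 and 1.24 on BPS arrays 1 to 4, against -0.03, 0.54, 0.85 and 0.49 on control arrays 1 to 4. It averaged 1.10 ± 0.26 in BPS and 0.46 ± 0.36 in control (SD, n = 4 each), a difference of 0.64 that is independent of the scaling of an array by a constant. The groups overlapped at BPS array 1 and control array 3. The size of the gap itself reflects the probe sets and is no ratio of the RNAs.

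**Figure D3:**
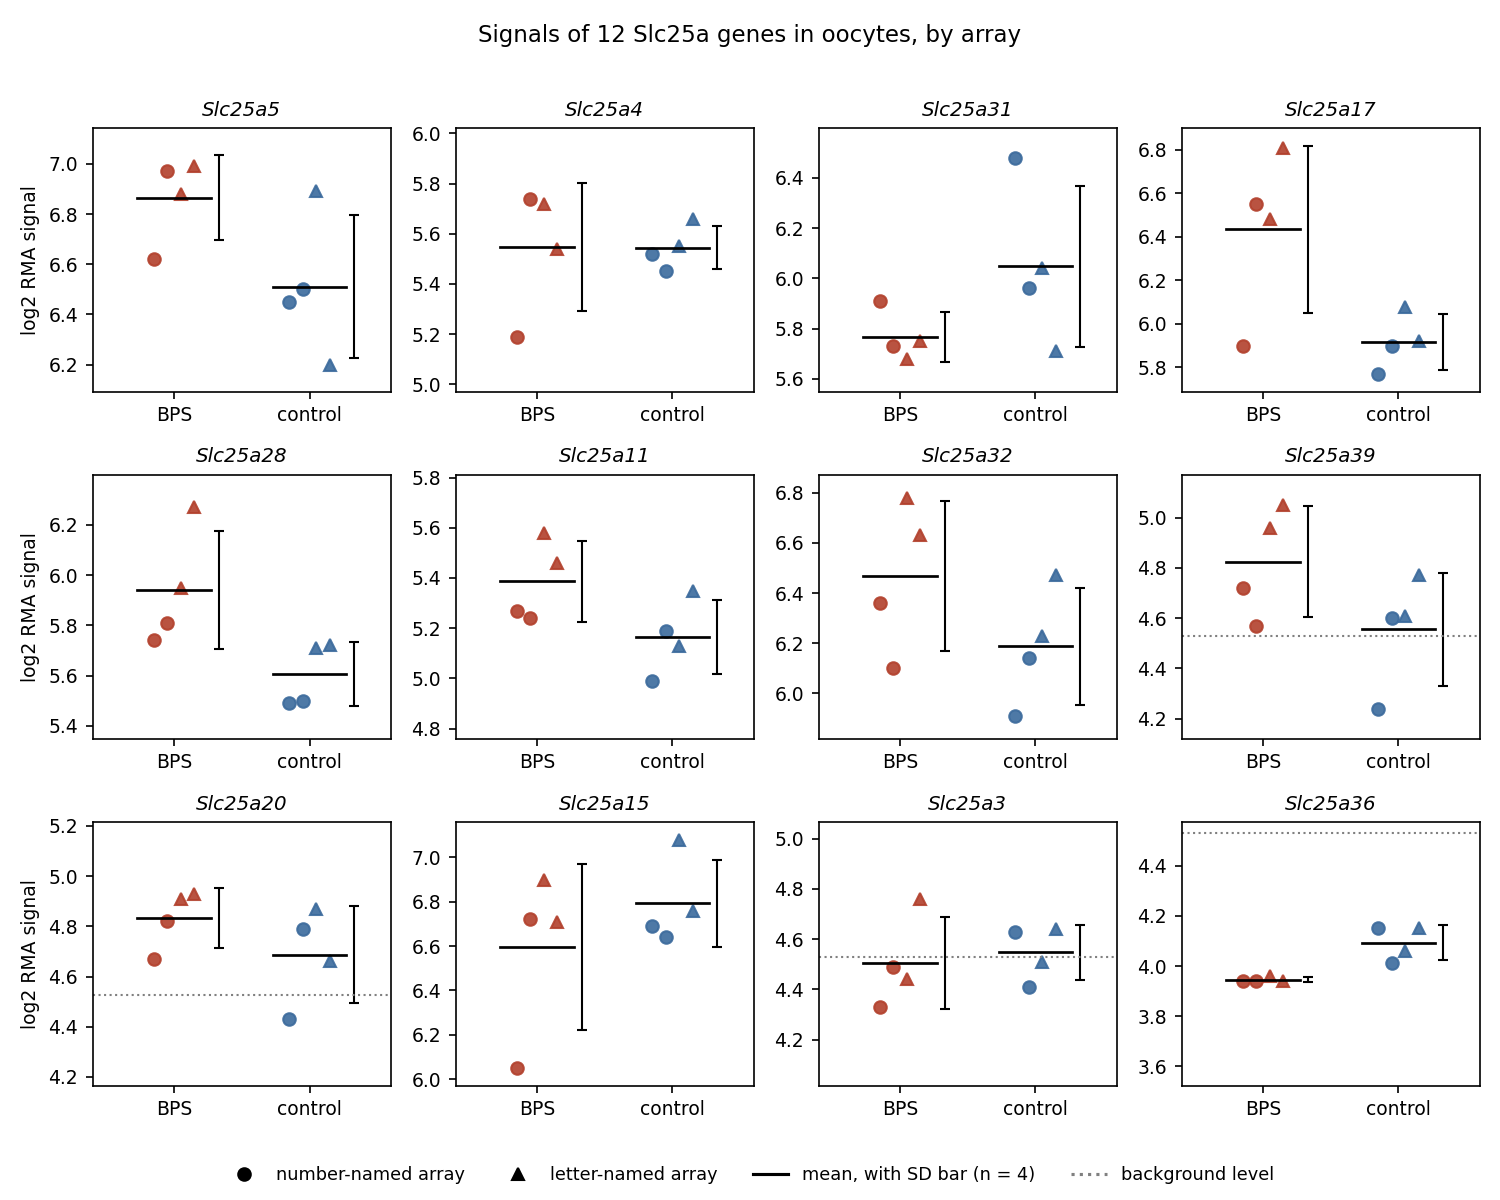
Log2 RMA signal (vertical axis) of 12 Slc25a genes in BPS and control oocytes (horizontal axis), 1 point per array, with circles for number-named and triangles for letter-named arrays. Lines are means with SD bars (n = 4), and dotted lines the background level of 4.53; in Slc25a28 every BPS array lies above every control array, in Slc25a36 every BPS array lies below, and the other 10 panels overlap.

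The 4 carriers of ATP-Mg and phosphate, exchangers that set the adenine nucleotide pool of the matrix, all had negative differences with a median of -0.05, and none passed the test. Only Slc25a23 exceeded background, with 4.78, 4.80, 4.76 and 4.32 on BPS arrays and 5.06, 5.10, 4.59 and 4.86 on control arrays. Its groups overlapped, with a difference of -0.24 ± 0.15 (SE; adjusted p = 0.547).

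Among the 8 carriers of phosphate, carboxylates and ketoacids, 5 differences were positive and 3 negative, the median was 0.02 and none passed. Slc25a11, the oxoglutarate carrier of the malate-aspartate shuttle, read 5.27, 5.24, 5.58 and 5.46 on BPS arrays, against 4.99, 5.19, 5.13 and 5.35 on control arrays. A single control array, number 4, reached into the BPS range. The difference was 0.22 ± 0.10 (SE; adjusted p = 0.460), and 0.07 after quantile normalization. Slc25a1, the citrate carrier that exports acetyl units for lipid synthesis, read 5.66, 6.12, 6.74 and 5.97 on BPS arrays and 5.91, 6.12, 6.19 and 6.49 on control arrays, which overlapped throughout with a difference of -0.06 ± 0.22 (SE). Slc25a35, counted with these carriers though its substrate is not settled, read 6.51, 6.41, 6.53 and 6.26 on BPS arrays and 6.45, 6.72, 6.22 and 6.55 on control arrays, with a difference of -0.06 ± 0.11 (SE; adjusted p = 0.859). Slc25a3, the phosphate carrier that supplies ATP synthase, had a mean just under background. It read 4.33, 4.49, 4.44 and 4.76 on BPS arrays and 4.63, 4.41, 4.51 and 4.64 on control arrays, and the difference was -0.04 ± 0.10 (SE; adjusted p = 0.885).

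The carriers of amino acids lay on both sides of 0. Of 9 measured, 7 had positive and 2 negative differences, with a median of 0.02, and none passed. Slc25a15, the ornithine carrier of the urea cycle, read 6.05, 6.72, 6.90 and 6.71 on BPS arrays, against 6.69, 6.64, 7.08 and 6.76 on control arrays. BPS array 1 lay far under the other 7. The difference was -0.20 ± 0.18 (SE; adjusted p = 0.699), and -0.016 without that array. Slc25a44, a carrier of branched-chain amino acids, averaged 5.68 ± 0.30 in BPS and 5.62 ± 0.26 in control (SD, n = 4 each), a difference of 0.05 ± 0.17 (SE). Slc25a13, an aspartate-glutamate carrier of the malate-aspartate shuttle, averaged 4.86 ± 0.28 in BPS and 4.82 ± 0.13 in control, a difference of 0.04 ± 0.14 (SE). Both differences lay well inside the spread of the arrays. Slc25a22, a glutamate carrier, read 4.42, 4.47, 5.32 and 4.33 on BPS arrays and 4.28, 4.39, 4.51 and 4.77 on control arrays, and its positive difference of 0.15 ± 0.22 (SE) came with 1 high BPS array.

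Carriers of nucleotides, coenzymes and vitamins held the carrier with the largest difference. Of 9 measured, 6 were positive and 3 negative, with a median of 0.13, and none passed. Slc25a17, which carries coenzyme A, FAD and NAD across the peroxisomal membrane, lies on chromosome 15 (81318921 to 81360765). It read 5.90, 6.55, 6.48 and 6.81 on BPS arrays, against 5.77, 5.90, 6.08 and 5.92 on control arrays. BPS array 1 fell among the controls and the other 3 BPS arrays lay above all of them. The difference of 0.52 ± 0.18 (SE) is 1.43-fold (adjusted p = 0.395). It was 0.39 within the number-named arrays, 0.65 within the letter-named arrays and 0.34 after quantile normalization.

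Slc25a32, the carrier of FAD and folate, read 6.36, 6.10, 6.78 and 6.63 on BPS arrays, against 5.91, 6.14, 6.23 and 6.47 on control arrays. The groups overlapped, with a difference of 0.28 ± 0.17 (SE; adjusted p = 0.538), and in both groups the letter-named arrays were the higher ones. Slc25a26, which imports S-adenosylmethionine for methylation in the matrix, read 4.96, 4.95, 4.81 and 5.08 on BPS arrays and 4.92, 4.85, 4.73 and 4.79 on control arrays, a difference of 0.13 ± 0.07 (SE; adjusted p = 0.509) that was 0.02 after quantile normalization. Slc25a16, linked to coenzyme A in the matrix, averaged 5.76 ± 0.29 in BPS and 5.49 ± 0.29 in control (SD, n = 4 each), a difference of 0.27 ± 0.18 (SE) that was 0.08 after quantile normalization.

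The pyrimidine nucleotide carriers were at or below background, and there small differences can separate the groups. Slc25a36, on chromosome 9 (97075281 to 97111041), read 3.94, 3.94, 3.96 and 3.94 on BPS arrays, against 4.15, 4.01, 4.06 and 4.15 on control arrays. All BPS arrays lay below all control arrays, with a difference of -0.15 ± 0.05 (SE; adjusted p = 0.390). It is the only carrier whose groups separated in that direction, where 1.68% of all probe sets did. Slc25a33 read 4.62, 4.32, 4.34 and 4.71 on BPS arrays and 4.31, 4.28, 4.24 and 4.41 on control arrays, and its difference was 0.19 ± 0.10 (SE; adjusted p = 0.494). Slc25a42, the coenzyme A carrier, read 4.35, 4.38, 4.38 and 4.43 on BPS arrays and 4.12, 4.34, 4.27 and 4.30 on control arrays. Its groups separated upward, as those of Slc25a28 did and those of 4.13% of all probe sets, with a difference of 0.13 ± 0.06 (SE; adjusted p = 0.455).

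Iron and glutathione carriers were all positive, with a median difference of 0.18 over 4 genes of which 2 exceeded background, and none passed. Positive differences were found in 59.1% of all probe sets and in 70.6% of those above background. The 2 genes at or below background, Slc25a37 and Slc25a40, differed by only 0.04 and 0.09. Slc25a28 is mitoferrin 2, which brings iron to the matrix for haem and iron-sulphur clusters in most tissues, and lies on chromosome 19 (43663801 to 43675006). It read 5.74, 5.81, 5.95 and 6.27 on BPS arrays, against 5.49, 5.50, 5.71 and 5.72 on control arrays. Every BPS array lay above every control array, and within each group the letter-named arrays lay above the number-named ones. The difference was 0.34 ± 0.12 (SE; adjusted p = 0.403), with 0.28 within the number-named arrays, 0.40 within the letter-named arrays and 0.16 after quantile normalization. Slc25a28 had the smallest adjusted p of all carriers in both blocked fits, 0.0764 with the replicate number and 0.0550 with the series of names as the block. Neither value passed.

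Slc25a37, mitoferrin 1 of the erythroid lineage, stayed at background with 3.98, 4.06, 4.02 and 4.26 on BPS arrays and 3.89, 4.07, 3.96 and 4.23 on control arrays, a difference of 0.04 ± 0.09 (SE). Slc25a39, a glutathione importer, read 4.72, 4.57, 4.96 and 5.05 on BPS arrays, against 4.24, 4.60, 4.61 and 4.77 on control arrays. The groups overlapped, with a difference of 0.27 ± 0.14 (SE; adjusted p = 0.494) that was 0.20 after quantile normalization. Slc25a20, the carnitine-acylcarnitine carrier that brings fatty acids in for oxidation, read 4.67, 4.82, 4.91 and 4.93 on BPS arrays and 4.43, 4.79, 4.87 and 4.66 on control arrays, a difference of 0.15 ± 0.10 (SE; adjusted p = 0.603) that was 0.059 without control array 1. The 2 uncoupling-protein-like members and a last group of 6, placed in no substrate class or linked to membrane fusion, were all at or below background, with median differences of -0.03 and 0.06.

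Arrays of the letter-named series read higher for the carriers in both groups. Letter minus number, the median over the 19 genes above background was 0.19 among BPS arrays and 0.15 among control arrays, and 14 of the 19 were higher in the letter-named arrays of both groups. All probe sets above background had medians of 0.18 and 0.11 for the same contrasts. BPS minus control, the carriers' median was 0.07 within the number-named and 0.16 within the letter-named arrays, against 0.08 and 0.16 for all probe sets above background. Of the 19 genes 11 were positive in both series, 3 were negative in both and 5 had opposite signs. With the series as a block, 7 carriers were higher and 1 lower at an unadjusted p under 0.05, where 13.3% of all probe sets were higher and 4.75% lower, and 3.47% of all probe sets but no carrier passed the adjusted threshold. With the replicate number as a block, 7 were higher and 2 lower, where 14.6% of all probe sets were higher and 5.5% lower, and 1.99% of all probe sets but again no carrier passed. The larger counts with a block thus came with larger shares over the whole array.

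Genes that work with the carriers were examined as 4 lists. Of 5 family members under other symbols, only Mtch1, a relative placed in the outer membrane, exceeded background, and it differed by -0.05 ± 0.09 (SE). Ucp1, the uncoupling protein of brown fat, was at background with a difference of -0.15 ± 0.07, and Mtch2, an outer-membrane insertase, with 0.09 ± 0.06. The 5 genes had 2 positive and 3 negative differences, a median of -0.03, and none passed the test with or without a block. Of 4 outer-membrane channel genes all were positive with a median of 0.06 and none passed. Of all probe sets above background, 70.6% were positive, with a median of 0.12. After quantile normalization the median of the 4 genes was 0.02 and Vdac2 was at -0.03. Vdac3 read 7.40, 7.69, 7.98 and 8.38 on BPS arrays and 7.30, 7.61, 7.74 and 8.14 on control arrays, a difference of 0.17 ± 0.24 (SE), and Vdac1 differed by 0.08 ± 0.06.

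The import pathway that inserts carriers in the inner membrane held Agk, whose groups lay further apart than those of any carrier. Of 11 measured genes 8 were positive, 2 were negative and 1 was at 0, none was called without a block, and the median was 0.09. After quantile normalization that median was 0.04. Of the 11 genes 7 exceeded background, where 70.6% of all probe sets were positive with a median of 0.12. Agk, acylglycerol kinase and a subunit of the TIM22 complex that inserts carriers, read 6.44, 7.01, 7.02 and 7.04 on BPS arrays, against 5.84, 6.04, 6.30 and 5.92 on control arrays. Every BPS array lay above every control array, as in 4.13% of all probe sets. The means were 6.88 ± 0.29 in BPS and 6.03 ± 0.20 in control (SD, n = 4 each), and the difference was 0.85 ± 0.16 (SE; adjusted p = 0.256). With the replicate number as a block the adjusted p was 0.0394, and with the series of names 0.0246. Those fits passed 1.99% and 3.47% of all probe sets, in that order. The difference was 0.79 within the number-named arrays, 0.92 within the letter-named arrays and 0.69 after quantile normalization. After that normalization the adjusted p was 0.181 without a block and 0.0245 with the series block, a setting chosen after seeing the data. Leaving out 1 array at a time gave differences of 0.79 to 1.00, with adjusted p between 0.119 and 0.541 in the fit without a block.

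The other genes named from this list had smaller differences. Timm22, the channel of that complex, was at background, with 3.93, 3.96, 3.98 and 3.96 on BPS arrays and 4.02, 4.00, 4.10 and 4.01 on control arrays. Its BPS arrays all lay below its control arrays, as in 1.68% of all probe sets, with a difference of -0.08 ± 0.04 (SE; adjusted p = 0.517). Timm8b, one of the small chaperones of the intermembrane space, read 7.32, 7.44, 7.63 and 7.90 on BPS arrays and 6.97, 7.29, 7.65 and 7.28 on control arrays, a difference of 0.28 ± 0.17 (SE; adjusted p = 0.541) with overlapping groups.

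**Figure D4:**
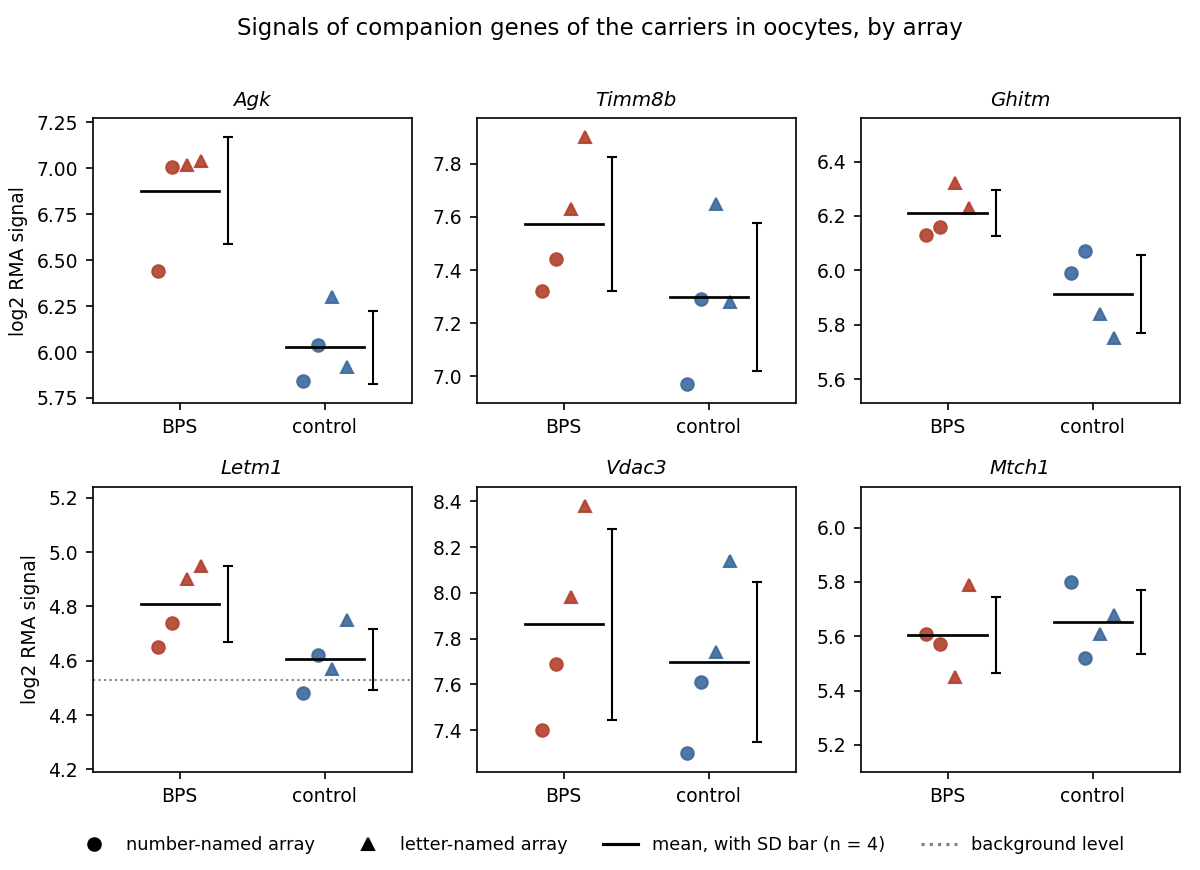
Log2 RMA signal (vertical axis) of 6 genes that work with the carriers or share their membrane, in BPS and control oocytes (horizontal axis), 1 point per array, with circles for number-named and triangles for letter-named arrays. Lines are means with SD bars (n = 4), and the dotted line is the background level of 4.53; Agk and Ghitm have every BPS array above every control array, and the other 4 panels overlap.

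Among 19 other transporters of the inner membrane 11 were positive and 8 negative, with a median of 0.04, and none was called without a block. At an unadjusted p under 0.05, 3 of them were higher (Ghitm, Sfxn3 and Letm1), where 7.99% of all probe sets and 16.3% of those above background were. Ghitm, a proton and calcium exchanger of the inner membrane, read 6.13, 6.16, 6.32 and 6.23 on BPS arrays, against 5.99, 6.07, 5.84 and 5.75 on control arrays, without overlap. Groups separated in that direction in 4.13% of all probe sets. The difference of Ghitm was 0.30 ± 0.08 (SE; adjusted p = 0.369), which was 0.12 within the number-named arrays, 0.48 within the letter-named arrays and 0.12 after quantile normalization. Sfxn3, a sideroflexin of the serine carrier family, differed by 0.18 ± 0.07 at background, and Letm1, a cation exchanger, by 0.21 ± 0.08 (SE; adjusted p = 0.410 and 0.435). Sfxn4, another sideroflexin, read 6.76, 7.23, 7.79 and 7.76 on BPS arrays and 6.88, 6.86, 7.57 and 7.60 on control arrays, which split by series of names and not by group, with a difference of 0.16 ± 0.28 (SE). Micu2, a gatekeeper of the calcium uniporter named after its values were seen, had a difference of 0.34 with an adjusted p of 0.0452 with the series as a block, in the fit that 3.47% of all probe sets passed. It did not pass with the replicate number as a block (adjusted p = 0.0694), nor with the series block after quantile normalization (0.16, adjusted p = 0.296).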

How the data were processed

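Total RNA labelled as mouse oocyte RNA was hybridised to 8 arrays, 4 BPS and 4 control. Per the file headers, the authors summarised probe sets at gene level with RMA, giving log2 signals with 2 decimals, annotated with NetAffx on mm10; Transcriptome Analysis Console is listed in the submitters' processing notes. The workbook and series matrix signals were equal in all 8 columns. The authors' deposited p-values and FDR come from a test not given in the sources used here. Array medians were 4.15 to 4.21, correlations between arrays 0.941 to 0.982, and the number of arrays limits precision.

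BPS minus control was fitted over all 34472 probe sets with lmFit and eBayes of limma 3.58.1 (R 4.3.3), two-sided, with Benjamini-Hochberg adjustment and a threshold of 0.05. The fit was also run on simulated data with known differences and independent noise. That simulation held no effect of array series, so it cannot show how the fit handles one. No spot-level background correction could be varied on RMA values. 1 member is counted but not reported here by itself. All 46 members matched the GRCm38.p6 gene table by accession. Promoter windows came from RefSeq, and tables and plots from Python 3.11.15, pandas 2.3.3 and matplotlib 3.10.9. Given in full were the 10 members of smallest p, the 4 of highest signal, and the ADP/ATP, phosphate, carnitine and mitoferrin genes; of each companion list, the 2 of smallest p and the brightest. Members, gene lists, tests and the array-series alternative were chosen with earlier results of these data known; other genes named beyond that rule are said to be so or stand within a group count. Alternatives were median centring, quantile normalization, a background filter, a trended robust variance, blocks for replicate number and array series, each series alone, and leaving out each array.

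Both groups have arrays titled 1 to 4. Pairs of one number had deviations from the group means that correlated at 0.519, 0.408, 0.137 and 0.354 over probe sets above background. These values met the rule used for pairing, but other pairs of the same series of names correlated as much, at 0.301 to 0.514. A pairing by number therefore cannot be told apart from a likeness within each series. SE, intervals and adjusted p are nonetheless from the fit without a block unless said, since the labels state no pairing. Values with the replicate block stand where they move a call or a count. Of the 20 oocyte markers none passed without a block. Figla (difference 0.44) went from an adjusted p of 0.461 to 0.0368 with the replicate block, and had 0.0965 with the series block. Zar1 (-0.38) went from 0.408 to 0.0300 with the series block, and had 0.0773 with the replicate block. Pairs across series correlated at -0.56 to -0.283, and the labels do not say what a number or a name shares.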

Additional observations from a re-analysis of the deposited data

Results flagged for a closer look

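Of 92 groups of 4 arrays (46 genes in BPS and in control), 6 held an array whose gap to the nearest other over the group's range exceeded Dixon's 95% critical value, as chance does in about 1 of 20 groups. All 6 were on BPS arrays 3 or 4, the letter-named ones of that group, and 2 concerned genes above background. Slc25a22 read 5.32 on BPS array 3, above the other BPS arrays, and Slc25a23 read 4.32 on BPS array 4, below them. The 4 genes at or below background were Slc25a10 (4.63 on BPS array 4), Slc25a27 (4.14 on BPS array 3), Slc25a40 (4.59 on BPS array 4) and Slc25a36 (3.96 on BPS array 3, where the other 3 read 3.94 and the values have 2 decimals).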

How the results depend on the processing

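No carrier passed the adjusted threshold in any of the 17 alternatives run, and the smallest adjusted p among the 17 genes given in full was 0.0550. The 4 carriers with an unadjusted p under 0.05 became 9 with the replicate block, 8 with the array-series block (shares over all probe sets also grew, as given above) and 2 within the number-named arrays; leaving out 1 array gave 2 (without control array 1) to 7 (without BPS array 2). The blocks changed no adjusted call of a carrier. Leaving out 1 array moved other differences by over 1.5 times: without control array 1, Slc25a39 was 0.17 and Slc25a42 0.082; without BPS array 3, Slc25a32 was 0.18; without BPS array 4, Slc25a33 was 0.12 and Slc25a26 0.084. The median difference of all carriers, 0.04, was 0.13 with only probe sets above background, a filter that keeps 19 of the 46. Of 284 differences over genes and alternatives, 270 kept their direction and their side of the threshold and 14, of 4 genes, turned: Slc25a4 to -0.015 with median centring, -0.17 after quantile normalization with or without the array-series block (with it, chosen after seeing the data) and -0.02 within number-named arrays, and, within letter-named arrays, Slc25a35 to 0.01 and Slc25a3 to 0.025. Leaving out 1 array gave -0.0617 to 0.122 for Slc25a4, -0.146 to 0.0208 for Slc25a35, -0.128 to 0.0158 for Slc25a3 and -0.0175 to 0.107 for Slc25a37; the cause was not tested. Each carrier had 1 probe set, so a mean over probe sets gave nothing different. Signals close to background limit the 27 dimmer genes. With 4 arrays a group, a carrier above background had intervals of 0.16 to 0.51 on either side.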

Other observations

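A probe set shared by Slc25a48 and AW011956, left out of the carrier counts because its signal cannot be given to either gene, read 8.32, 8.48, 8.46 and 8.47 on BPS arrays 1 to 4, against 8.63, 8.44, 8.61 and 8.30 on control arrays 1 to 4, and the groups overlapped. A probe set shared by Khsrp and Slc25a41 had a mean signal of 5.34, with 5.27, 5.38, 5.65 and 5.11 on BPS arrays and 5.49, 5.29, 5.27 and 5.25 on control arrays.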
